A study of Mus musculus with 96 samples.

Results

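The 9 genes described here, of 22422 with coding counts, run the synthesis, breakdown and feedback control of polyamines: Odc1, Azin1, Oaz1, Oaz2, Amd1, Srm, Sms, Sat1 and Smox. They were chosen by symbol, as genes of this pathway whose output is known to be set in good part during translation, and the rule uses no measured value. The tissue was the neural tube of E11.5 mouse embryos. Mutant embryos were heterozygous for the Eif3c Xs-J allele on C3HeB (3 pools), and the wild-type embryos were C3HeB (3 pools). Eif3c encodes a subunit of eIF3, the factor complex that brings the small ribosomal subunit to mRNA, and the allele is carried by every cell of the embryo. For each pool, neural tubes of 1 litter were dissociated, and the cells were divided between a tube for poly(A) RNA-seq and a tube for ribosome profiling, in which the stretches of mRNA covered by ribosomes survive nuclease treatment and are sequenced as footprints. Whether pools 1, 2 and 3 of 1 genotype were different litters is not stated in the labels, and p-values here measure only the spread between these pools.

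Polyamines (putrescine, spermidine and spermine) are small cations that bind RNA and are needed for growth and for the hypusine modification of eIF5A. Their level feeds back on the translation of the pathway's own mRNAs: polyamines promote the ribosomal frameshift that makes antizyme, they repress S-adenosylmethionine decarboxylase through a short upstream reading frame, and they act on the translation of the Sat1 and Azin1 mRNAs. Odc1, which encodes ornithine decarboxylase, the enzyme that makes putrescine, has a long, structured 5' untranslated region (5' UTR) and is a classic case of an mRNA whose translation is limited at initiation.

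Libraries were checked first. Eif3c RNA stood at 296, 290 and 302 CPM (coding counts relative to the TMM-scaled library total) in mutant pools 1, 2 and 3, against 518, 497 and 474 CPM in wild type, a log2 change of -0.75 ± 0.06 (SE; edgeR quasi-likelihood test, adjusted p = 6.15e-04), as the labels have it. Depth was 9.57M to 13.1M coding counts in mutant RNA libraries and 7.20M to 13.1M in wild-type ones. Footprint libraries held 11.3M to 14.8M in the mutant and 17.3M to 59.2M in wild type, so mutant footprint values rest on fewer reads. Neural progenitor and neuron markers were present in every pool, with 6 of 6 genes of each list detected. Summed RNA of the neuron markers lay between 3305 and 4036 CPM in mutant pools and between 4300 and 4392 CPM in wild-type pools, without overlap, and erythroid markers stood at 6313 CPM in mutant pool 1 against 2680 to 3320 CPM in the other 5. In footprints the neuron markers were again lower in every mutant pool, at 5982 to 7140 CPM against 7422 to 8088 CPM in wild type. Mesenchyme markers were higher in every mutant footprint pool, at 1099 to 1781 CPM against 926 to 1093 CPM, as were those of neural crest and sensory ganglia, at 434 to 513 CPM against 410 to 431 CPM; in RNA both overlapped. Mutant footprint pool 1, which was lowest in Azin1 and Odc1 below, was highest in erythroid (14022 CPM), mesenchyme (1781 CPM) and endothelium markers (641 CPM, against 350 to 460 CPM in the other 5). The part of these in the results below was not tested. In such bulk samples fewer cells of a type and less RNA per cell cannot be told apart.

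The 5' UTRs of the 9 mRNAs fell into those with short reading frames upstream of the main start and those with none. They were read from the GENCODE vM21 transcript of each gene with the highest coding count (genome build mm10, GRCm38). The motif ATG was searched on the transcript strand and followed in frame to TAA, TAG or TGA; 51.2% of 19360 mouse 5' UTRs hold at least 1 such ATG. Odc1 has a 5' UTR of 489 bases with 2 upstream ATGs and 70.6% GC. Amd1 has 328 bases and 1, Azin1 590 bases and 3, Sat1 177 bases and 2, and Sms 334 bases and 4. The 5' UTRs of Oaz1 (74 bases), Oaz2 (198), Srm (117) and Smox (299) hold none. The Oaz1 transcript used had 14857 coding reads over all libraries, and another had 14856. On its 5' UTR it held 1 read, where the other held 311, and the 5' UTR of that other transcript was not searched. Among 5' UTRs within 10% of the same length, 89.2% hold an upstream ATG for Odc1, 94.0% for Azin1, 55.9% for Sat1 and 75.1% for Smox, so the frames of Odc1 and Azin1 are usual for their length. In Oaz1 and Oaz2 the annotated coding sequence skips 1 base inside the transcript, the place of the antizyme frameshift. The frames below are those of at most 30 bases that end within the 5' UTR, with start and stop codons in capitals; they are shown because the footprint counts of the 5' UTR include any ribosomes on them.
Odc1, chr12:17544921-17544947, plus strand: ATGacgacgtgctcggcgtataagTAG
Amd1, chr10:40302155-40302175, minus strand: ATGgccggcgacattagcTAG
Azin1, middle frame, chr15:38514482-38514505, minus strand: ATGatagggggttccatctccTAA
Azin1, last frame, chr15:38501507-38501536, minus strand: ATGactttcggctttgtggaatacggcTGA
Sat1, first frame, chrX:155216271-155216285, minus strand: ATGgtgccagccTGA
The last Azin1 frame ends 1 base before the main start codon, while the Odc1 frame shown ends 335 bases before it. The other upstream frame of Sat1 runs for 44 codons and overlaps the coding sequence, so that a footprint near the main start of Sat1 can belong to either frame. The main start sites of Azin1 and Sat1 follow, with the start codon in capitals, because footprints across the start of Sat1 carry the 1 call among these genes.
Azin1, chr15:38501500-38501514, minus strand: acggctgagATGaaa
Sat1, chrX:155216163-155216177, minus strand: aagacgaaaATGgct

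Several members have processed pseudogenes, copies of the mature mRNA elsewhere in the genome, and reads from a shared stretch cannot be assigned to 1 gene by sequence. Windows of 30 bases, close to the length of a footprint, were compared with all annotated transcripts of other genes. For Amd1, which encodes S-adenosylmethionine decarboxylase, the enzyme that makes the aminopropyl donor for spermidine and spermine, 100% of the windows of the counted coding sequence also occur in another gene, above all in Amd-ps3 and Amd2. For Sms, spermine synthase, 100% occur in Sms-ps. The share was 90.1% for Oaz1 (Oaz1-ps), 82.3% for Odc1 (led by Gm7993), 66.1% for Oaz2 (Oaz2-ps), 35.9% for Sat1 and 19.0% for Srm, and 0% for Azin1 and Smox. Over 21422 genes the median share was 0% and 16.6% of genes had a share of at least 50%, against 5 of the 9 members.

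The coding counts of Amd1 and Sms, all of whose coding windows are shared, were near 0. Amd1 had 18, 3 and 5 coding RNA reads in mutant pools and 11, 8 and 4 in wild-type pools, and no coding footprint in any of the 6 footprint libraries. Sms had 5, 1 and 5 coding RNA reads in mutant pools and 6, 3 and 1 in wild-type pools, and likewise no coding footprint. Yet the Sms mRNA was plainly present in its 3' UTR, of which no window is shared: 1082, 1056 and 935 RNA reads in mutant pools and 853, 1107 and 705 in wild-type pools. Scaled for depth, these counts gave a log2 change of -0.03 ± 0.09 (adjusted p = 0.919, edgeR on 3' UTR counts). Over all pools the RNA density of the coding sequence of Sms was 0.00802 times that of its 3' UTR and that of Amd1 0.0782 times, where the median of 12001 genes was 1.11. Oaz1 stood at 0.511, with 2.06% of these genes below it, while Odc1 stood at 3.35 in spite of its shared windows. The coding counts of Amd1 and Sms are not read here as a measure of their translation, and how the authors treated reads with several matches is not given in the sources used here.

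**Figure D1:**
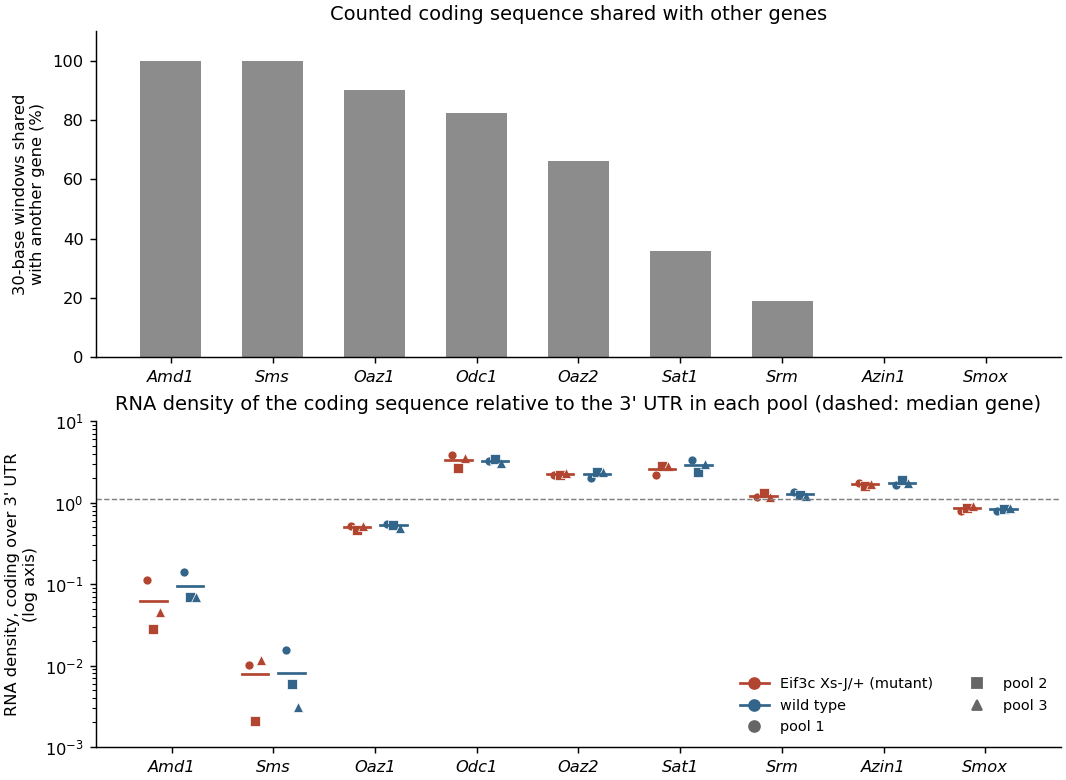
Upper panel: percentage of 30-base windows of each gene's counted coding sequence that also occur in a transcript of another gene. Lower panel: RNA density of the coding sequence over that of the 3' UTR, on a log axis, in each pool (points; circle, square and triangle for pools 1, 2 and 3; bar, mean of 3; mutant left, wild type right); Amd1 and Sms lie far below the median gene (1.11, dashed), Oaz1 lies between 0.458 and 0.554, and the other 6 lie between 0.784 and 3.88.

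Of the 9 genes, 7 could be tested on coding RNA, and none passed. Across all genes 52 of 13406 passed an adjusted p of 0.05 in edgeR's quasi-likelihood test, or 0.388%, with 0.224% higher and 0.164% lower in the mutant; of the 7 members, 1 had an unadjusted p under 0.05, as did 17.5% of all genes. DESeq2 called 4.41% of genes and none of the 6 members to which it gave an adjusted p. The member with an unadjusted p under 0.05 was Odc1, with 108, 85.6 and 93.4 CPM in mutant pools against 87.5, 80.4 and 75.4 CPM in wild-type pools. Mutant pool 1 was highest, and mutant pool 2 lay below wild-type pool 1, so the groups overlap. The log2 change was 0.24 ± 0.09 (adjusted p = 0.200). Without mutant pool 1 it was 0.14 (adjusted p = 0.466). Without mutant pool 2 it was 0.31 and passed, with an adjusted p of 0.0294, in a fit in which 1528 genes passed instead of 52; over all alternatives its adjusted p ranged from 0.0294 to 0.501.

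The genes that control ornithine decarboxylase were not called in RNA either. Azin1 encodes the antizyme inhibitor, a relative of ornithine decarboxylase without its activity that takes antizyme away from it. Azin1 RNA stood at 180, 194 and 178 CPM in mutant pools and 185, 169 and 188 CPM in wild-type pools, the highest level of the 7 genes per length (143 ± 6.62 CPM per kb in the mutant and 140 ± 7.81 in wild type, SD, n = 3 each). Oaz1 encodes the main antizyme, which binds ornithine decarboxylase and takes it to the proteasome, and had 36.6, 28.6 and 32.3 CPM in mutant pools and 35.7, 31.2 and 36.7 CPM in wild-type pools. Both sets overlap. Oaz2, a second antizyme, had 31.9, 28.0 and 30.2 CPM in mutant pools and 35.5, 32.5 and 33.6 CPM in wild-type pools, and its mutant pools were all lower. Its log2 change was -0.17 ± 0.09 (adjusted p = 0.358), and 11% of all genes tested had every mutant pool below every wild-type pool.

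RNA of the synthases and of the breakdown enzymes overlapped between genotypes. Srm, spermidine synthase, had 82.4, 70.4 and 81.0 CPM in mutant pools and 75.9, 69.8 and 70.4 CPM in wild-type pools. Smox, spermine oxidase, which turns spermine back into spermidine, had 43.9, 39.2 and 41.4 CPM in mutant pools and 44.7, 43.9 and 42.0 CPM in wild-type pools. Sat1 encodes spermidine/spermine acetyltransferase, the gate to polyamine breakdown and export, and had 11.7, 10.1 and 8.09 CPM in mutant pools and 13.2, 10.9 and 8.76 CPM in wild-type pools. Per length Sat1 was lowest, at 20.9 ± 3.83 CPM per kb in the mutant and 23.0 ± 4.64 in wild type, which overlaps Smox (25.8 ± 1.46 in the mutant and 27.1 ± 0.865 in wild type; SD, n = 3 each). Amd1 could be followed in its 3' UTR alone, 89.5% of whose windows it shares with Amd2. There it had 319, 210 and 215 RNA reads in mutant pools and 153, 228 and 115 in wild-type pools, and the log2 change was 0.35 ± 0.11 (adjusted p = 0.139); on these counts 0.6% of genes passed.

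Footprints on the coding sequence put the genes in another order than RNA did. Per kb, Oaz1 carried the most footprints, 165 ± 5.86 CPM per kb in the mutant and 128 ± 8.11 in wild type (SD, n = 3 each), followed by Srm (95.3 ± 4.72 in the mutant and 79.3 ± 6.93 in wild type) and Azin1 (67.6 ± 14.0 in the mutant and 81.6 ± 0.960 in wild type). In wild type Srm and Azin1 do not differ beyond their spread. Oaz2 came next with 29.7 ± 0.979 CPM per kb in the mutant and 28.7 ± 3.06 in wild type. Below it lay Odc1, at 15.9 ± 1.25 in the mutant and 16.2 ± 0.561 in wild type. Smox stood at 12.9 ± 1.05 in the mutant and 11.2 ± 0.230 in wild type. Sat1 was lowest, at 9.56 ± 1.70 in the mutant and 7.29 ± 1.69 in wild type.

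**Figure D2:**
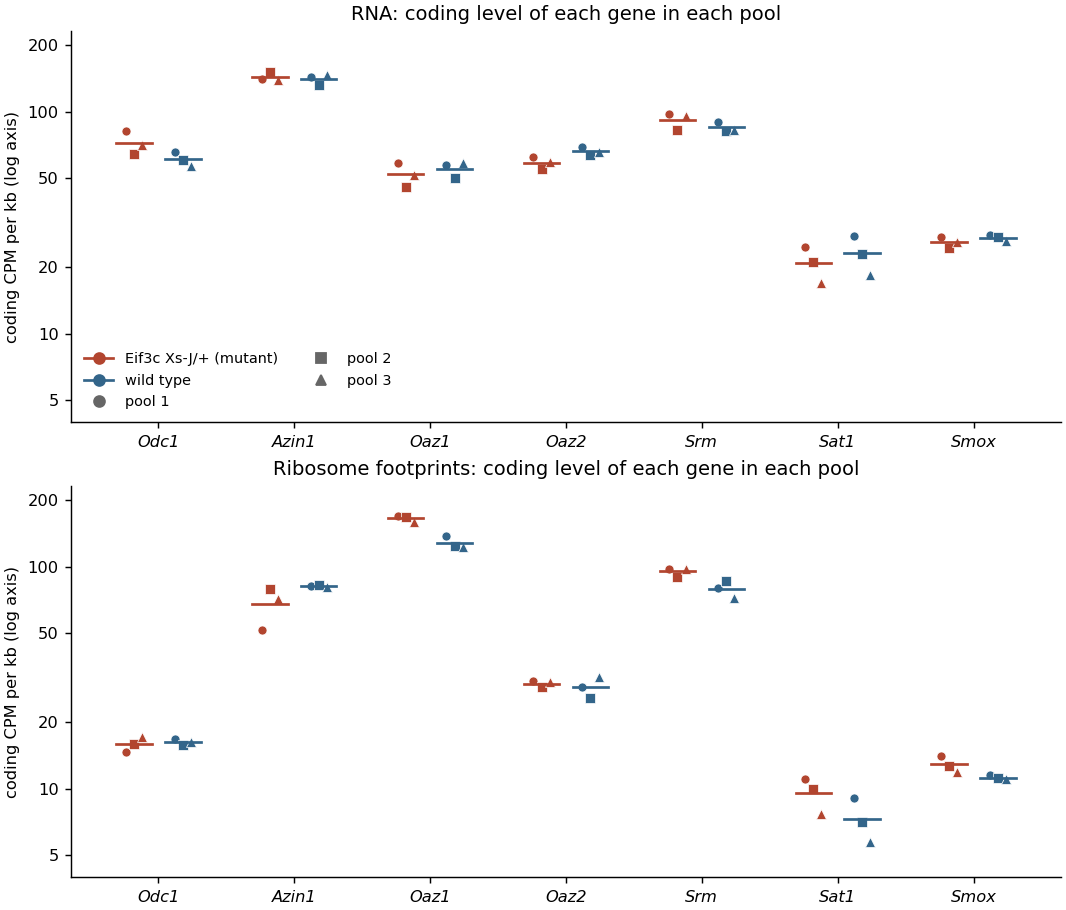
Coding level of 7 genes in RNA (upper panel) and footprints (lower panel), in TMM-scaled CPM per kb on a log axis; points are pools (circle, square and triangle for pools 1, 2 and 3), bars are means of 3, mutant left and wild type right. Oaz1, Srm and Smox footprints lie higher in every mutant pool, and mutant pool 1 of Azin1 lies apart at 52.0; Amd1 and Sms, with no coding footprint, are not drawn.

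None of the 7 genes passed the test on coding footprints, where 34 of 13423 genes did, or 0.253%, with 0.223% higher and 0.0298% lower in the mutant. Among the 7, 2 had an unadjusted p under 0.05, as did 22.8% of all genes, and DESeq2 called 1, Oaz1, and 6.78% of the 12382 genes to which it gave an adjusted p. Oaz1 was nearest to the threshold: it had 106, 104 and 98.9 CPM in mutant pools against 85.4, 77.4 and 76.1 CPM in wild-type pools. All mutant pools were higher, as in 14.4% of all genes. The log2 change was 0.37 ± 0.07, with an adjusted p of 0.0686 in edgeR and 0.00190 in DESeq2. It also passed without mutant pool 2 (adjusted p = 0.0179, in a fit that called 2333 genes) and with no filter on low counts (adjusted p = 0.0468). With offsets for the GC content of coding sequences the Oaz1 change was 0.25 (adjusted p = 0.115). With the 4 truncated lanes of mutant footprint pool 1 summed in, the change was 0.74 with an adjusted p of 0.205, and over all alternatives the adjusted p ranged from 0.00190 to 0.299. Since 90.1% of its windows occur in Oaz1-ps, these reads cannot be assigned to Oaz1 alone.

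Srm followed, with 83.2, 76.2 and 83.2 CPM in mutant pools against 68.0, 72.8 and 61.1 CPM in wild-type pools. These do not overlap either, and the log2 change was 0.27 ± 0.08 (adjusted p = 0.125; 0.0427 without mutant pool 2, the lowest over all alternatives, with 0.405 the highest). Smox had 22.5, 20.4 and 19.1 CPM in mutant pools against 18.4, 17.9 and 17.8 CPM in wild-type pools, again without overlap, with a log2 change of 0.19 ± 0.10 (adjusted p = 0.279). With offsets for the GC content of coding sequences the change was 0.17 for Srm and 0.09 for Smox.

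Azin1 was the member with fewer footprints in every mutant pool, a pattern shown by 14.8% of all genes. Its footprints stood at 66.9, 102 and 92.1 CPM in mutant pools against 105, 106 and 104 CPM in wild-type pools. Mutant pool 1 was far below the others, and the wild-type pools were nearly equal. The log2 change was -0.27 ± 0.13 (adjusted p = 0.245; over all alternatives 0.0481, at -0.40 without mutant pool 2, to 0.648), and without mutant pool 1 it was -0.11. With the GC offsets it was -0.08. Odc1 footprints overlapped, at 19.4, 21.0 and 22.7 CPM in mutant pools and 22.2, 20.7 and 21.6 CPM in wild-type pools.

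Footprints per mRNA, the ratio of footprint to RNA CPM on the coding sequence, differed widely among the 7 genes. Odc1 had a ratio of 0.225 in the mutant (log2 -2.15 ± 0.25, SD, n = 3) and 0.270 in wild type (log2 -1.89 ± 0.09), where 4.54% of 13877 genes lay below it. Sat1 had a ratio of 0.484 in the mutant and 0.347 in wild type, where 7.77% of genes lay below it. Smox had 0.504 in the mutant and 0.421 in wild type, Oaz2 had 0.513 in the mutant and 0.439 in wild type, and Azin1 had 0.467 in the mutant and 0.583 in wild type. In wild type Odc1, both breakdown enzymes, Oaz2 and Azin1 all lay in the lower 22.7% of the range of all genes. Srm stood near the middle, with 1.04 in the mutant and 0.934 in wild type. Oaz1 was at the other end, with 3.15 in the mutant and 2.29 in wild type, where 98.8% of genes lay below it. The ratio divides by coding RNA, whose density relative to the 3' UTR was low in Oaz1, as given above. It was also low in Smox (0.837, above 8.14% of 12001 genes). It was high in Odc1 (3.35, above 94.4%), Sat1 (2.62, above 91.7%), Oaz2 (2.24, above 89.0%) and Azin1 (1.72, above 82.7%). The part of these densities and of shared windows in the ratios was not tested.

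**Figure D3:**
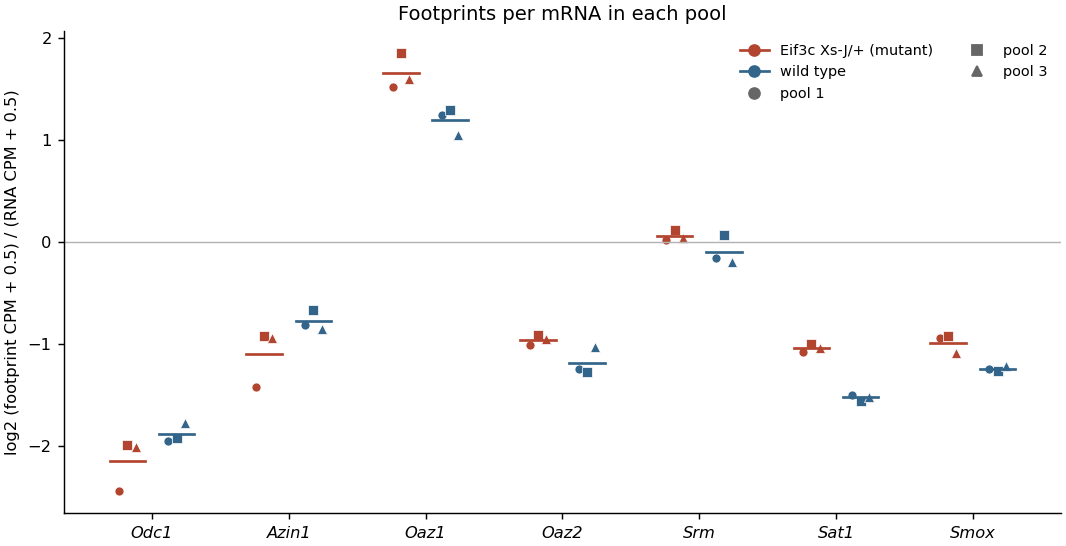
Log2 of footprint over RNA CPM (0.5 CPM added to each) of 7 genes in each pool; points are pools (circle, square and triangle for pools 1, 2 and 3), bars are means of 3, mutant left and wild type right. Oaz1 lies at or above 1.04 in every pool and Odc1 at or below -1.78, and Srm is the gene whose genotypes overlap.

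Between genotypes, no member passed the test of the difference in footprints per mRNA in the fit without the cell pool as a block. In that form edgeR called 0 of 13877 genes (0%), with 1367 at an unadjusted p under 0.05. DESeq2 called 20 (0.144%), none of them a member. Among the 7 members, 2 had an unadjusted p under 0.05, against 9.85% of all genes. The smallest p was that of Oaz1, whose log2 ratios were 1.52, 1.85 and 1.60 in mutant pools against 1.25, 1.30 and 1.04 in wild-type pools. The change was 0.46 ± 0.13 (adjusted p = 0.430). Both libraries of each pool were made from the cells of 1 dissociation, so the fit was also made with the cell pool as a block. There 113 genes passed and Oaz1 was 1 of them, at 0.47 with an adjusted p of 0.0497, the lowest over the alternatives. The other members had smaller SE there too, with Sat1 at 0.54 ± 0.19 and Azin1 at -0.30 ± 0.11, but did not pass. Their adjusted p ran from 0.138 (Sat1) to 0.346 (Srm). With GC offsets the Oaz1 change was 0.31. With the 4 truncated lanes of mutant footprint pool 1 summed in it was 0.83, with an adjusted p of 0.524, but those lanes hold counts on 3 chromosomes at most.

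In 6 of the 7 genes the pools of the genotypes did not overlap in this ratio, with 4 higher and 2 lower in the mutant, while 10.6% of all genes were higher and 12.3% lower in this way. Smox had log2 ratios of -0.95, -0.93 and -1.09 in mutant pools against -1.25, -1.27 and -1.22 in wild-type pools (change 0.28 ± 0.12, adjusted p = 0.470; 0.13 with GC offsets). Sat1 had -1.09, -1.01 and -1.04 in mutant pools against -1.50, -1.56 and -1.52 in wild-type pools, close together within each genotype, but on few reads (change 0.51 ± 0.30, adjusted p = 0.598). With the whole coding sequence counted, the first 45 and last 15 bases included, the Sat1 change was 0.06. Oaz2 had -1.02, -0.92 and -0.95 in mutant pools against -1.25, -1.28 and -1.03 in wild-type pools.

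Odc1 and its inhibitor's antagonist Azin1 were the members that lay lower in every mutant pool. Odc1 had log2 ratios of -2.45, -2.00 and -2.01 in mutant pools against -1.95, -1.93 and -1.78 in wild-type pools, with a change of -0.25 ± 0.13 (adjusted p = 0.549). Azin1 had -1.42, -0.92 and -0.95 in mutant pools against -0.81, -0.67 and -0.85 in wild-type pools, with a change of -0.28 ± 0.15 (adjusted p = 0.573). In both genes mutant pool 1 was lowest, and the other mutant pools lay close to the lowest wild-type pool. Without mutant pool 1 the change was -0.11 for Odc1 and -0.15 for Azin1, and with GC offsets it was -0.15 for Odc1 and 0.025 for Azin1.

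**Figure D4:**
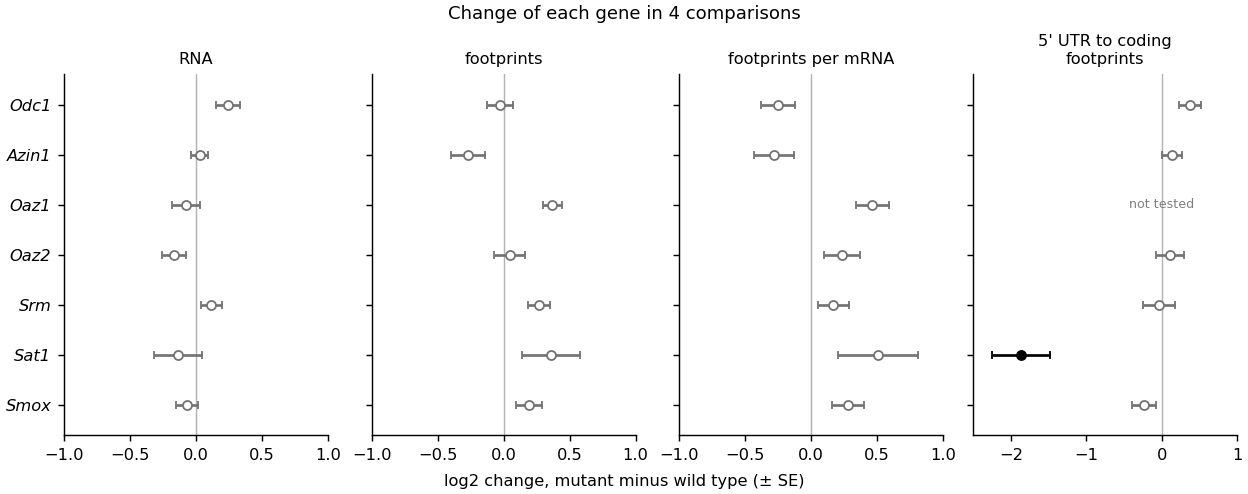
Log2 change, mutant minus wild type, with SE, of 7 genes in RNA, footprints, footprints per mRNA and the ratio of 5' UTR to coding footprints. Footprints per mRNA are from the fit without the cell pool as a block, and the last panel has a wider axis. The filled point, Sat1 at -1.87 in the last panel, is the 1 value with an adjusted p under 0.05. The Oaz1 transcript used has too few 5' UTR counts to be tested.

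Odc1 and Azin1 carried more footprints per base on the 5' UTR than on the coding sequence. Per base, Odc1 carried 4.69, 3.09 and 3.51 times as many footprints on its 5' UTR as on its coding sequence in mutant pools, against 2.43, 2.23 and 2.66 times in wild-type pools. All mutant pools were higher. Azin1 carried 4.00, 2.72 and 2.67 times in mutant pools against 2.43, 2.25 and 2.54 times in wild-type pools, where again all mutant pools were higher and pool 1 most. In wild type Odc1 lay above 83.2% of 11004 genes in this ratio and Azin1 above 82.7%, with Smox at 76.4% and Sat1 at 72.4%. Smox, Sat1, Oaz2 and Srm also carried more per base on the 5' UTR in wild type, at 2.01, 1.83, 1.35 and 1.26 times. At that value Srm lay above 51.3% of genes, so a higher density on the 5' UTR was common. A higher ratio in the mutant was common, since 27.3% of genes had every mutant pool above every wild-type pool. The 5' UTR counts of all genes together came to 20.5, 16.9 and 19.8% of coding counts in mutant footprint libraries and 16.6, 16.5 and 16.4% in wild-type ones. In RNA the density ratio of Odc1 was itself high, at 1.38, 1.66 and 1.67 in mutant pools and 1.51, 1.47 and 1.63 in wild-type pools, above that of 96.6% of genes in wild type. Divided by its RNA ratio, the wild-type footprint ratio of Odc1 was 1.58, above 34.7% of genes, and that of Azin1 was 2.89, above 77.3%.

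In the test of 5' UTR against coding footprints, each scaled to its own total, 6 of the 9 genes could be tested. The log2 change was 0.37 ± 0.14 for Odc1 (adjusted p = 0.125) and 0.13 ± 0.13 for Azin1 (adjusted p = 0.598). Without mutant pool 1 it was 0.28 for Odc1 and 0.02 for Azin1. On the coding scaling, which moves the median of all genes to 0.22, Odc1 stood at 0.60 with an adjusted p of 0.0447, the lowest over its alternatives, with 0.346 the highest. The Odc1 5' UTR held 377, 293 and 442 footprints in mutant pools and 1171, 294 and 690 in wild-type pools. Few of these (at most 2 of 1112 in the mutant and at most 1 of 2155 in wild type) also touched the coding sequence. No window of this 5' UTR is shared with another gene. Of the windows of the Azin1 5' UTR, 58.8% also lie in Gm49077, an antisense gene at the same place, so that reads there cannot be told apart without strand. Sms, without coding footprints, had 263, 203 and 364 footprints on its 5' UTR in mutant pools and 953, 235 and 492 in wild-type pools (log2 change of 0.28 ± 0.12, adjusted p = 0.172; 8.63% of genes passed on 5' UTR footprints).

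Sat1 was the 1 member called in the test of 5' UTR against coding footprints. Footprints counted on its 5' UTR fell relative to coding footprints in the mutant, but nearly all of them also touched the coding sequence. In this test 631 of 11004 genes passed, or 5.73%, with 3.67% higher and 2.06% lower in the mutant. Sat1 had 11, 4 and 21 footprints on the 5' UTR in mutant pools, against 139, 57 and 52 in wild-type pools. On the counted coding sequence it had 59, 58 and 55 in mutant pools and 255, 58 and 89 in wild-type pools. The ratio of densities was 0.502, 0.186 and 1.03 in mutant pools and 1.47, 2.65 and 1.57 in wild-type pools, without overlap, a pattern of 3.23% of all genes. The log2 change was -1.87 ± 0.38 (adjusted p = 0.00918). Without mutant pool 1 it was -1.72 with an adjusted p of 0.0502, so 1 library decides the call. Over the other alternatives that could test it the adjusted p ranged from 1.65e-05 to 0.0458, and DESeq2, which called 5.54% of 8230 genes and none of the members it tested, gave Sat1 no adjusted p.

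Nearly all of these Sat1 footprints lay across the main start codon rather than within the 5' UTR. Of the 36 in the mutant 35 were counted as also touching the coding sequence, and of the 248 in wild type 241 were. Reads across the stop codon enter this count too, and Sat1 had 1 footprint on its 3' UTR in the mutant and 0 in wild type. Over all genes the same count came to 38.4 to 41.1% of 5' UTR footprints in mutant libraries and 40.4 to 42.7% in wild-type ones. There it is an upper bound for the share across the start. The first 45 and last 15 bases of the coding sequence, which the coding counts leave out, held a large part of the Sat1 footprints. The footprints across the start are among them. These bases held 30.4% of its coding footprints in the mutant and 46.6% in wild type. The medians of 13423 genes were 5.24% in the mutant and 4.65% in wild type. The 44-codon reading frame that overlaps the start covers part of the same stretch. Counted over the whole coding sequence, Sat1 had 86, 67 and 94 footprints in mutant pools and 449, 135 and 169 in wild-type pools, and the log2 change of its footprints was -0.10 (adjusted p = 0.769), where the counted part gave 0.36 ± 0.22 (adjusted p = 0.351; 0.21 to 0.58 when 1 pool was left out). With the footprints across the start left out, too few were left on this 5' UTR for the test. Another Sat1 transcript with nearly the same coding count has a 5' UTR of 281 bases, on which 21, 26 and 23 footprints in mutant pools and 71, 22 and 41 in wild-type pools did not touch the coding sequence. With all transcripts summed the log2 change of the ratio was -1.15 (adjusted p = 0.0458). In that sum a read on several transcripts was counted for each of them, so its counts are not independent reads. The footprints across the start numbered 10, 4 and 21 in mutant pools against 134, 56 and 51 in wild-type pools, and in wild-type pool 2 they nearly equalled the 58 counted coding footprints. In RNA the 5' UTR to coding density of Sat1 was 0.311, 0.225 and 0.394 in mutant pools and 0.286, 0.285 and 0.257 in wild-type pools.

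**Figure D5:**
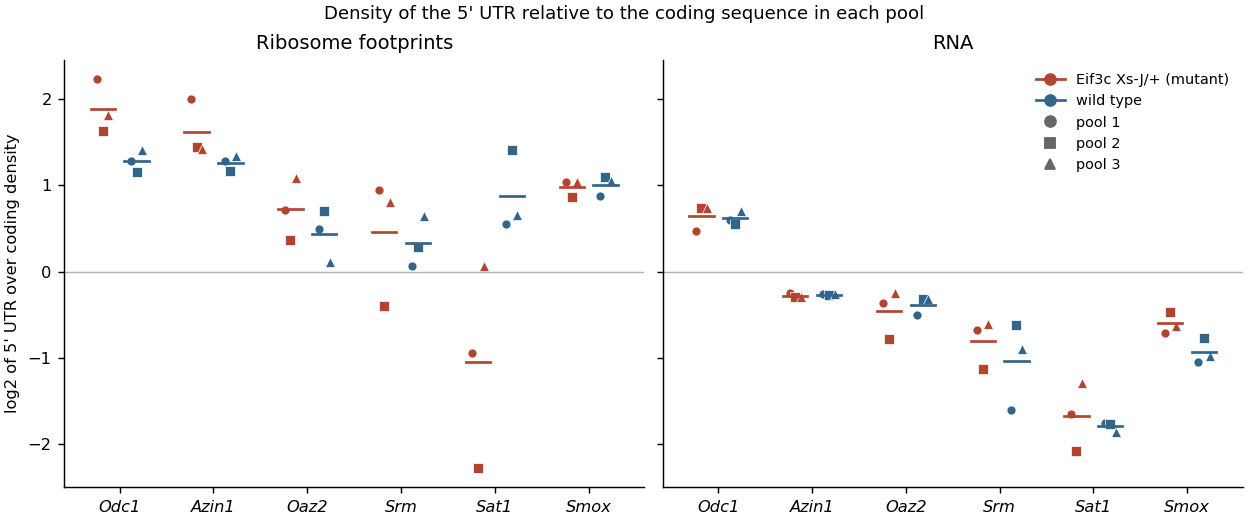
Log2 of the read density of the 5' UTR over that of the coding sequence (0.5 reads added to each count) for 6 genes in footprints (left) and RNA (right); points are pools (circle, square and triangle for pools 1, 2 and 3), bars are means of 3, mutant left and wild type right. Sat1 footprints lie lower in every mutant pool and those of Odc1 and Azin1 higher, while the RNA values overlap except in Smox.

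The other members showed no such difference. Smox had density ratios of 2.05, 1.81 and 2.04 in mutant pools and 1.84, 2.13 and 2.07 in wild-type pools, and Oaz2 and Srm overlapped as well. Footprints on the 3' UTR were few: Srm had 15, 18 and 27 in mutant pools, or 1.61, 1.93 and 2.17% of its coding footprints, against 119, 61 and 62 in wild-type pools, or 2.97, 4.86 and 3.11%. The Srm pools do not overlap, as in 3.77% of 7026 genes with at least 60 such footprints, while 17.2% were higher in every mutant pool. In Azin1 they overlapped, at 2.93, 5.23 and 3.48% in mutant pools and 5.18, 5.41 and 2.78% in wild-type pools.

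A list of 26 genes of polyamine supply, transport, salvage and use held 1 member, Amd1, beside its copy Amd2. Of the list 18, without Amd1, could be tested in RNA. There edgeR called 1 lower and none higher in the mutant, against 0.164% and 0.224% of all genes. That gene was Atp13a2, a lysosomal polyamine exporter, with 192, 199 and 198 CPM in mutant pools against 232, 252 and 250 CPM in wild-type pools (log2 change of -0.32 ± 0.06, adjusted p = 0.0499). The groups do not overlap, and the adjusted p lies at the threshold: it passed under 4 of 15 alternatives, with a range from 0.00242 to 0.258 and a log2 change of -0.28 to -0.36. The median log2 change of the 18 was 0.09, where that of all genes was 0.01. In footprints edgeR called 0 of the 18, with 4 at an unadjusted p under 0.05, where 22.8% of all genes had one. DESeq2 called 2, Dohh and Mtap, and 6.78% of all genes. The smallest p in edgeR was that of Mtap, which salvages the by-product of polyamine synthesis (0.33 ± 0.09, adjusted p = 0.106). Dohh, the second hypusine enzyme (0.40 ± 0.12, adjusted p = 0.117), and Eif5a, the hypusine-carrying translation factor (0.29 ± 0.09, adjusted p = 0.120), came next. The Dohh change was 0.26 without mutant pool 1, 0.20 with GC offsets and 0.81 with the truncated lanes summed in. Arginase 2 (Arg2) stood at -0.59 ± 0.21 (adjusted p = 0.147). In footprints per mRNA and in the 5' UTR ratio edgeR and DESeq2 called 0 of the list, with 1 and 2 genes at an unadjusted p under 0.05 in edgeR, where 9.85% and 22.7% of all genes had one. Of Myc, Mycn and Max, which drive or accompany transcription of Odc1, none was called by edgeR or DESeq2 in any comparison, with Mycn in footprints the 1 value at an unadjusted p under 0.05; Mycn RNA stood at 89.5, 79.0 and 89.3 CPM in mutant pools and 81.4, 80.7 and 87.6 CPM in wild-type pools.

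Across the 12 libraries, the genes whose levels followed Odc1 most closely were Becn1, Wwp1 and Ciao2a, at distances of 0.36, 0.37 and 0.39 on the log2 scale with each gene centred on its own mean, where the median over 13876 genes was 3.46. For Azin1 they were Exoc5, Pnpla8 and Atg16l1, at 0.21 to 0.27 with a median of 1.88. The libraries of both assays enter this distance, the gap between RNA and footprints included.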

How the data were processed

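RNA-seq and ribosome profiling libraries of 3 cell pools per genotype were used. For each lane and run the authors deposited read counts of whole transcripts, 5' UTRs, coding sequences and 3' UTRs. The tools were cutadapt, STAR and bedtools, with build mm10, per the submitters' processing notes; for versions, strand and the treatment of reads with several matches, nothing is given in the sources used here. In coding counts the first 45 and last 15 bases are left out. The size of a library limits the precision: mutant footprint libraries held 11.3M to 14.8M coding counts and wild-type ones 17.3M to 59.2M.

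Lanes and runs were summed. Of 96 lane columns 4, all of mutant footprint pool 1, held counts on 3 chromosomes at most and were left out. Transcripts were joined to symbols with GENCODE vM21, and 1 transcript per gene was used, that with the highest coding count (Azin1: highest whole-transcript count among those tied). Genotypes were compared with edgeR 4.0.16 in R 4.3.3 (quasi-likelihood test, TMM scaling, filterByExpr with a minimum count of 10 and minimum total of 15, Benjamini-Hochberg adjustment over all genes tested). RNA and footprints were fitted over 6 libraries each, footprints per mRNA as a genotype by assay interaction over 12, and 5' UTR to coding footprints as the interaction of genotype and region with the library as a block, leaving out genes with no coding footprint. SE were calculated back from the test. Tables used Python 3.11.15 with pandas 2.3.3. The fits were tested on simulated data with known changes of 1 on the log2 scale in well-counted genes. That test covered neither smaller changes nor genes with few counts such as Sat1.

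The named genes were all 9 members, Eif3c, a list of other polyamine genes (counts and the smallest p), Myc, Mycn and Max, and the 3 genes most like Odc1 and Azin1 over 12 libraries; Amd1 was below the filter for this. The members and lists were chosen with earlier results of these data known. Both libraries of each pool were made from 1 dissociation, per the labels' protocols, and their deviations from the group means correlated at 0.574, 0.494 and 0.275 in mutant pools 1, 2 and 3 and at 0.210, 0.225 and 0.322 in wild-type pools. Alternatives were DESeq2 1.42.0, other scaling, no filter, leaving out each pool, all lanes, other transcripts and the block. Chosen after seeing the data were those without chromosome Y genes, with the whole coding sequence and with GC offsets. So were those with 3' UTR or 5' UTR counts and without reads across the start. The last of these took reads across the stop codon off the 5' UTR count as well.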

Additional observations from a re-analysis of the deposited data

How the results depend on the processing

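Of 408 values of single members under other settings, 380 kept their direction and their side of the threshold, 19 changed direction, 8 came to pass and 1 no longer passed. In RNA, where 52 genes passed, DESeq2 called 408, no filter 461, summed transcripts 1, the whole coding sequence 22 and GC offsets 2, and leaving out 1 pool gave 1 to 1528, and 0 to 1 members. In footprints, where 34 passed, DESeq2 called 840 (1 member), no filter 243 (1 member), all lanes 9, summed transcripts 22, no chromosome Y genes 59 and 5' UTR counts 953 (1 member), and leaving out 1 pool gave 8 to 2333, and 0 to 3 members. In footprints per mRNA, where 0 passed, DESeq2 called 20 and leaving out 1 pool gave 0 to 1. In the 5' UTR ratio, where 631 passed, no filter gave 1062, coding scaling 1023 (2 members) and summed transcripts 307. Leaving out 1 pool gave 48 to 1072, and 0 to 1 members. With footprints across the start taken off the 5' UTR count 242 passed (0 members), but this setting also took off those across the stop codon. Among the counts with 1 pool left out, the highest came without mutant pool 2 in RNA, footprints and the 5' UTR ratio, and the cause was not tested. What a pool number shared by mutant and wild-type libraries means is not stated in the labels. Same-numbered deviations correlated at 0.0563 to 0.115 in RNA (different numbers -0.0947 to 0.0123) and -0.103 to -0.0420 in footprints (-0.0480 to 0.125): each RNA library correlated best with its own number and no footprint library did, a hint from the data only, and the numbers were not used as pairs. With this replicate block 196 genes passed in RNA and 38 in footprints. With the cell pool as a block 113 passed in footprints per mRNA (1 member, Oaz1), and with no replicate block 274 in the 5' UTR ratio; no other member's call changed. These values changed direction: leaving out 1 pool gave log2 changes of -0.28 to 0.0043 for Sat1, -0.025 to 0.054 for Azin1 and -0.17 to 0.0015 for Oaz1 in RNA, -0.023 to 0.12 for Oaz2 and -0.091 to 0.024 for Odc1 in footprints, and -0.066 to 0.21 for Oaz2 and -0.19 to 0.24 for Srm in the 5' UTR ratio. GC offsets gave -0.088 for Azin1 in RNA, 0.053 for Odc1 in footprints and 0.025 for Azin1 in footprints per mRNA. Odc1 footprints were 0.037 with all lanes and 0.022 with summed transcripts, and Sat1 footprints -0.10 with the whole coding sequence. The Srm 5' UTR ratio was 0.0061 with no replicate block, 0.18 on coding scaling and 0.064 with footprints across the start or stop taken off. Depth limits Sat1 most, with 55 to 59 counted coding footprints in mutant pools.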
